A study of Mus musculus with 71 samples.

Results

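Of the 16864 unique anchors of the H3K27ac chromatin loops of mouse synovial sarcoma (SyS), 972 measured 4.5 kb or more from start to end, or 5.76% of them. These wide anchors were taken from a single list of 24244 loops, in which each loop has 2 anchors, a count of paired-end tags and a false discovery rate (FDR), and they were chosen by width alone, whatever their loops or genes. The other 15892 anchors of the same list, all narrower than 4.5 kb, served as the comparison. The loops came from HiChIP of 2 tumors expressing the human fusion SS18::SSX2 (hSS2 mice of a mixed C57Bl/6 and svJ background, both sexes used in the study), in which TATCre protein injected into the hindlimb at 8 days of age had switched on the fusion. Tumors were dissociated into single cells before crosslinking, and no control tissue was profiled by HiChIP. The fusion was thus driven in whichever hindlimb cells took up the injected Cre, and host cells of the tumor were part of the material. The authors merged the loops of both tumors, and no value can be assigned to 1 tumor. The list did turn out to be 2 position-sorted parts set end to end, with 13683 loops and 28657 tags in the first and 10561 loops and 12917 tags in the second. Nothing ties either part to a tumor, and values are given within each part beside the pooled ones.

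HiChIP cuts crosslinked chromatin with a restriction enzyme, ligates the ends that lie near each other and then pulls down the joined fragments with an antibody. H3K27ac, acetylation of lysine 27 of histone H3, marks active promoters and active enhancers, and a loop is a pair of acetylated regions ligated to each other more often than distance alone would give. SS18::SSX takes the place of SS18 in canonical and non-canonical BAF chromatin-remodeling complexes. The paper reports that the non-canonical ones move with the fusion to sites marked by Polycomb, many of them at developmental transcription factor genes. Canonical BAF with the fusion was largely missing from such sites and lay narrowly at transcription start sites. A wide anchor is a long acetylated stretch, a run of long restriction fragments, or a mixture of these, since loop callers extend a peak to the edges of the fragments it touches.

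The edges of an anchor are set by the enzyme, and they are shown for 3 of the widest anchors because they fix what width means here. In all 16864 anchors both ends fell on the first base of the site GATC, which MboI cuts and which reads the same on both strands. The lines below give 10 bases before the site, the site in capitals and 10 bases after it, on the plus strand of GRCm38, for the Hes1 anchor (chr16:30062746-30072353), the Meis1 anchor (chr11:19013082-19024543) and the anchor in a Snx9 intron (chr17:5878906-5890956).
Hes1 anchor, start edge: acagaatacaGATCctctccacca
Hes1 anchor, end edge: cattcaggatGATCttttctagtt
Meis1 anchor, start edge: tctaagtgggGATCataaacactc
Meis1 anchor, end edge: ttcaccggtgGATCcagtgctgtc
Snx9 intron anchor, start edge: tgggagtaagGATCagacccaggg
Snx9 intron anchor, end edge: ctgaggttcaGATCctgtgctggt
Within anchors, the site was thinner in the wide ones. The central 200 bases held GATC in 29.9% of wide anchors (95% interval 27.1 to 32.9), against 41.5% (40.7 to 42.2) of narrower anchors and 40.8% of all anchors. Because anchors end at GATC sites, sparse sites make an anchor wide, and this contrast follows in part from the choice by width.

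CpG-rich sequence is typical of mammalian promoters, and the following windows show how far wide anchors at promoters and away from them differed in it. Each line is the 200-base window with the most CG among those that touch no GENCODE exon, on the plus strand of GRCm38, with every CG in capitals. The first 3 anchors hold the promoters of Hes1, Zic2 and Meis1, and the last 2 lie in introns of Bahcc1 and Hmga2 and have no transcription start site (TSS) within 2 kb.
Hes1 anchor, chr16:30063454-30063653: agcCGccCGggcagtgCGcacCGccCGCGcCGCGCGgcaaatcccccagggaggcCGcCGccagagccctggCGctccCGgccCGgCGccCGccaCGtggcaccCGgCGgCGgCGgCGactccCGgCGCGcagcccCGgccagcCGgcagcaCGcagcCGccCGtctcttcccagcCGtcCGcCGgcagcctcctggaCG
Zic2 anchor, chr14:122475200-122475399: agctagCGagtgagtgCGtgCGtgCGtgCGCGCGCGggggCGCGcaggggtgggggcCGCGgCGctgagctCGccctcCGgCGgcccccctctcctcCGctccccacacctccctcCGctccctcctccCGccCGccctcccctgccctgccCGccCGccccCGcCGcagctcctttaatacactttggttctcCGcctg
Meis1 anchor, chr11:19019779-19019978: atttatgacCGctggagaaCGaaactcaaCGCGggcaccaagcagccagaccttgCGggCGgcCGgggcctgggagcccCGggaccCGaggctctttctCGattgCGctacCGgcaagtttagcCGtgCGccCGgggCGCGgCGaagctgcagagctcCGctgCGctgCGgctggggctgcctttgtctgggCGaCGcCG
Bahcc1 intron anchor, chr11:120259883-120260082: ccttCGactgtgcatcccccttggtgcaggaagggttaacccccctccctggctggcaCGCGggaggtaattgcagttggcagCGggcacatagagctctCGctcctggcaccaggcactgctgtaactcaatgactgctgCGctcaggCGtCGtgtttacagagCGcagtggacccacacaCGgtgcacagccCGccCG
Hmga2 intron anchor, chr10:120428573-120428772: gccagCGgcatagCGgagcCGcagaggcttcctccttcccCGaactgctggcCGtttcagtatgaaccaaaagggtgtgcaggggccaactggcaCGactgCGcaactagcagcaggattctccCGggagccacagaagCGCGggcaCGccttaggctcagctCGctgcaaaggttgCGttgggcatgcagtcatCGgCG
The promoter windows held 34 (Hes1), 25 (Zic2) and 24 (Meis1) CG, against 12 in the Bahcc1 intron and 15 in the Hmga2 intron. Both intron windows lay more than 10 kb from any TSS, at 14.5 kb for Bahcc1 and 19.4 kb for Hmga2. The same contrast held over the whole set. In the CG-richest 200 bases of each anchor, exons included, the median was 29 CG (quartiles 22.75 and 35) for the 788 wide anchors within 2 kb of a TSS and 9 (7 and 13) for the 184 without. At least 1 CG is common in any such window, being present in the central 200 bases of 95.7% of all anchors, 94.0% of wide and 95.8% of narrower ones.

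The wide anchors formed the tail of a single continuous distribution of widths. Their median was 5.05 kb, against 2.59 kb for all anchors, and 802 of them lay between 4.5 and 6 kb. Only 170 reached 6 kb and 30 reached 8 kb, while the widest measured 26.5 kb and the next 12.1 kb. Together they covered 5.24 of the 46.8 Mb in the list, or 11.2%. Anchors can overlap each other, and the 972 wide anchors fell into 904 separate loci. On single chromosomes the wide share ran from 4.20% on chromosome 7 (41 of 977 anchors) to 8.01% on chromosome 18 (46 of 574), with intervals of 3.11 to 5.64% and 6.06 to 10.5%. Both lie at the ends of 20 chromosomes set in order.

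**Figure D1:**
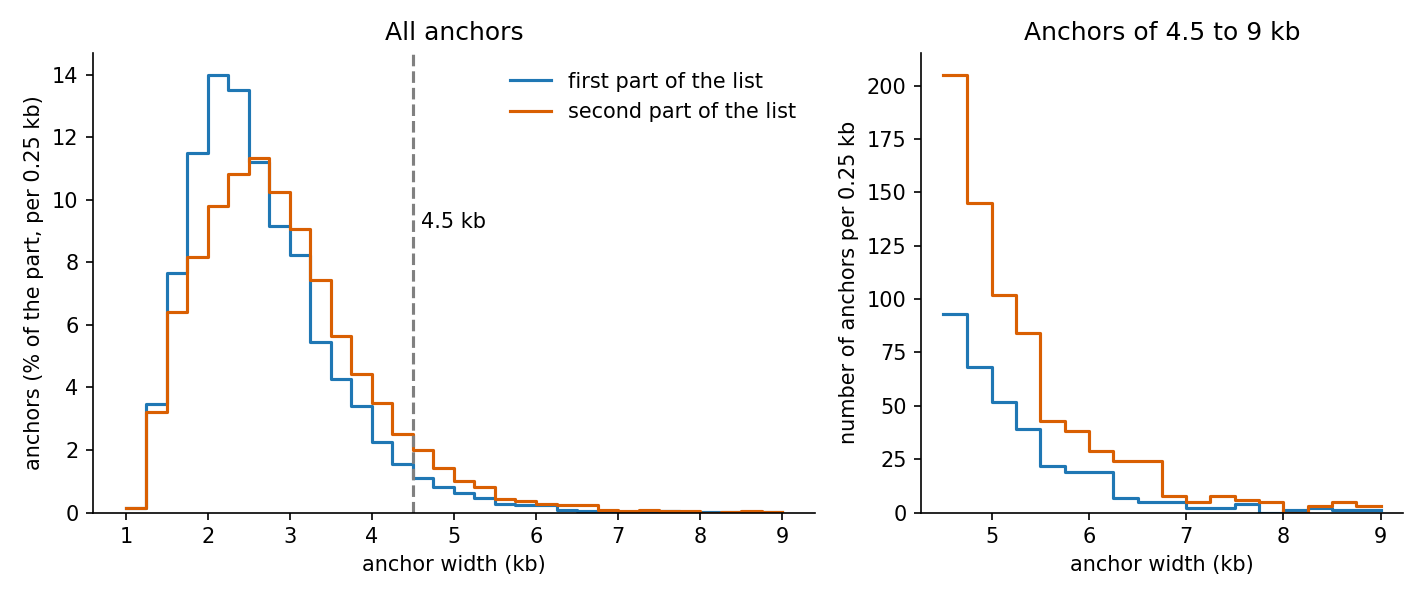
Widths of anchors in kb on the x axis, in steps of 0.25 kb; the left panel gives the percent of the anchors of each part of the list and the right panel the number of anchors from 4.5 to 9 kb. No gap separates the wide anchors from the rest at the dashed line (4.5 kb), and the second part of the list has more of them throughout most of the tail.

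The share of wide anchors was not the same in the 2 parts of the list. It was 4.18% (347 of 8297 anchors; 95% interval 3.77 to 4.63) in the first part and 7.28% (747 of 10254; 6.80 to 7.80) in the second, whose median anchor was 2.75 kb against 2.50 kb. The same start and end in both parts were found for 122 wide anchors (12.6%, interval 10.6 to 14.8). For narrower anchors this share was 9.85% (9.39 to 10.3). Overlap told more than identity. Where several anchors of the other part overlapped, the widest was taken. Of the 347 wide anchors of the first part, 222 met an anchor of the second, and the widest one met was wide too in 190 cases (85.6%; 80.4 to 89.6). Of the 747 wide anchors of the second part, 497 met an anchor of the first. The widest one met was wide in 190 cases (38.2%; 34.1 to 42.6) and had a median width of 3.74 kb. Where the parts overlapped, anchors wide in the first part were thus mostly wide in the second, and the reverse was true of a minority.

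The widths were next resolved into MboI fragments. Wide anchors consisted of a median of 8 fragments (range 2 to 22) and narrower ones of 6 (1 to 20). Per kb the order turned round, with a median of 1.30 sites inside a wide anchor and 1.80 inside a narrower one. The longest fragment of a wide anchor had a median length of 2.10 kb, against 1.03 kb. A single fragment of 3 kb or more was present in 16.4% of wide anchors (159; 14.2 to 18.8) and 0.327% of narrower ones (52). In the first part of the list such a fragment was found in 78 of 347 wide anchors (22.5%; 18.4 to 27.2) and in the second in 97 of 747 (10.8 to 15.6). An anchor is as wide as its fragments together, so that these values describe how the width was made up and follow in part from the choice by width. The outermost fragments carried much of the width in wide and narrower anchors alike. With the first and last fragment removed, the median fell from 5.05 to 2.29 kb for wide anchors. For narrower ones it fell from 2.53 to 0.987 kb. Of the wide anchors, 69 (7.10%; 5.65 to 8.89) still reached 4.5 kb.

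**Figure D2:**
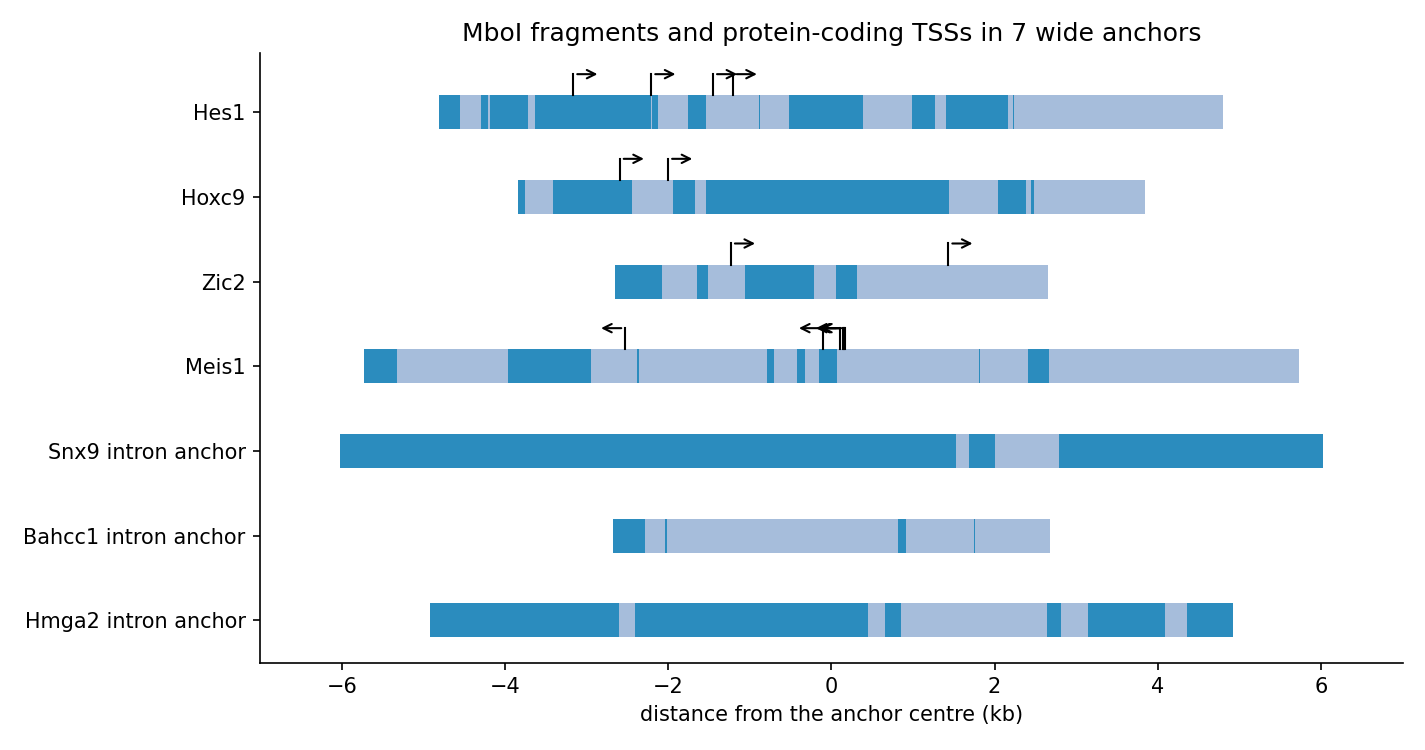
MboI fragments (alternating shades) in 7 wide anchors, to scale, with distance from the anchor centre in kb on the x axis; arrows mark TSSs of protein-coding genes inside the anchor and point in the direction of transcription. The Hes1 anchor is cut into 22 fragments and the Meis1 anchor into 18, whereas the Snx9 intron anchor has 5, of which 1 spans 7.55 kb.

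Most wide anchors were promoter anchors. A TSS lay within 2 kb of 788 of the 972 (81.1%; 95% interval 78.5 to 83.4), compared with 76.7% (76.0 to 77.4) of narrower anchors, a difference of 4.36 percentage points (1.69 to 6.79). The 2 kb are added to the width of the anchor itself, so that more bases were searched at a wide one. The parts of the list differed in these shares. In the first part 83.9% of wide and 85.0% of narrower anchors were near a TSS, a difference of -1.12 points whose interval spans 0 (-5.43 to 2.47). In the second part the shares were 82.2% and 72.5%, a difference of 9.70 points (6.66 to 12.4). Wide anchors thus had much the same promoter share in both parts, and it was the narrower anchors that moved the comparison. Among loops with an FDR under 0.01 the wide share was 84.0% and the narrower share 86.2%.

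The promoter share did not climb steadily with width. It was highest in the class of 3 to 4.5 kb, just below the threshold, at 89.3% in the first part and 85.6% in the second. From there it passed through 86.0% and 83.3% at 4.5 to 6 kb to 72.2% (59.1 to 82.4) and 76.9% (69.0 to 83.3) at 6 kb or more. Anchors under 2 kb stood at 76.7% and 44.0%. In both parts the widest class therefore lay below the class under 4.5 kb, with intervals that do not overlap.

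**Figure D3:**
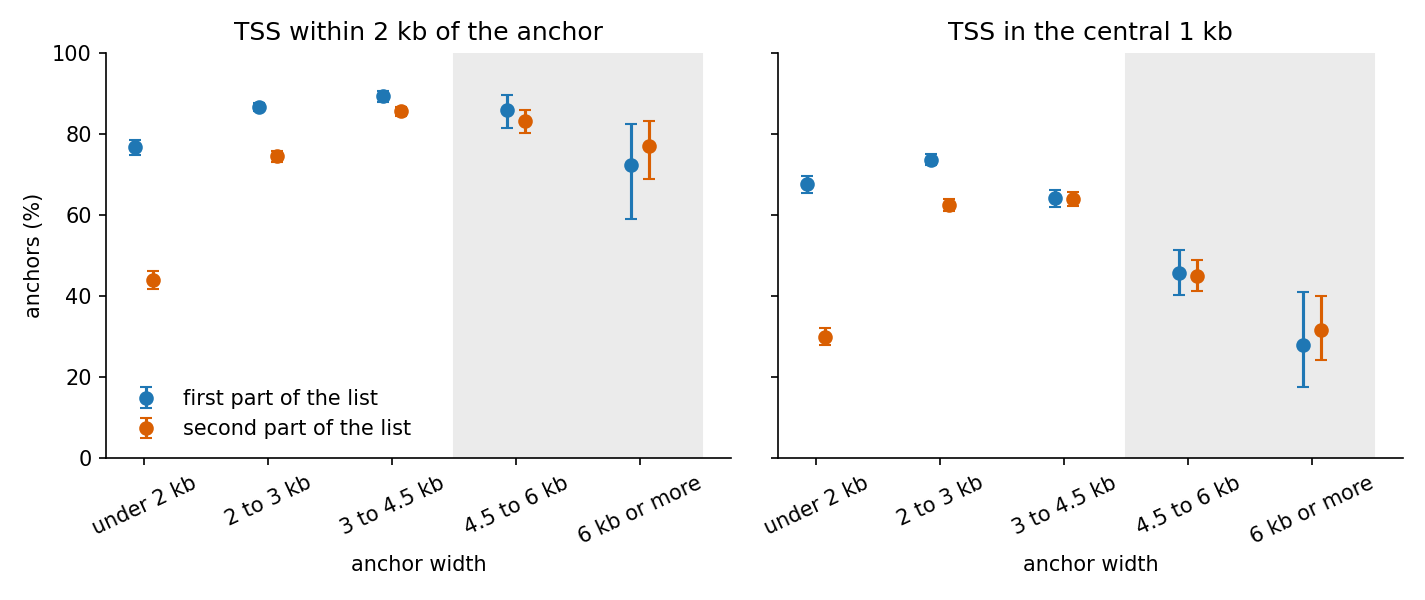
Percent of anchors with a TSS within 2 kb (left) and with a TSS in their central 1 kb (right) by width class and part of the list; points are shares, bars are Wilson 95% intervals for counting error, and the shaded classes are the wide anchors. Wide anchors of both parts sit close together in both panels, and their central share falls to 27.8% and 31.5% at 6 kb or more.

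Where the TSS lay inside the anchor separated wide from narrower anchors more than whether there was one. A TSS fell in the central 1 kb of 41.0% of wide anchors (38.0 to 44.2) and of 61.0% of narrower ones (60.2 to 61.7), a difference of -19.9 points (-23.0 to -16.7). The shares were 42.9% and 69.7% in the first part, and 42.7% and 56.7% in the second. The window of 1 kb is a smaller fraction of a wide anchor than of a narrower one. The midpoint of wide anchors was in an intron in 49.2% (46.0 to 52.3) and in an exon in 27.5% (24.8 to 30.4), while for narrower anchors it was in an intron in 41.1% and in an exon in 36.9%. Intergenic midpoints were found in 227 wide anchors (23.4%; 20.8 to 26.1) and 3490 narrower ones.

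The reach of anchors on each side of the promoter of a single gene was measured. The 2 sides add up to the width, so that a longer total reach follows from the choice by width. Downstream reach was counted from the most upstream TSS, which lengthens that side where a gene has several. Among anchors holding TSSs of exactly 1 protein-coding gene, the 575 wide ones extended a median of 1.85 kb upstream of the outermost TSS (quartiles 1.23 and 2.60) and 3.29 kb downstream (2.50 and 4.05). The 9427 narrower ones extended 0.986 kb and 1.56 kb. The gene body side was the longer in 73.7% of the wide anchors (70.0 to 77.2) and in 78.9% of the narrower ones (78.1 to 79.7), so that extra width was not confined to the transcribed side. Relative position was alike, with a median of 35.9% of the anchor upstream of the TSS for wide and 38.0% for narrower anchors. Wide anchors also more often held protein-coding TSSs on both strands, in 12.3% (10.4 to 14.6) against 8.80% (8.37 to 9.25), and 16.8% against 12.4% had at least 2 protein-coding genes within 2 kb. Both shares were taken over more bases in a wider anchor. Neither was particular to wide anchors, since the class of 3 to 4.5 kb had 12.3% and 16.4%, and at 6 kb or more the shares were 8.82% (15 of 170) and 11.8% (20 of 170).

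**Figure D4:**
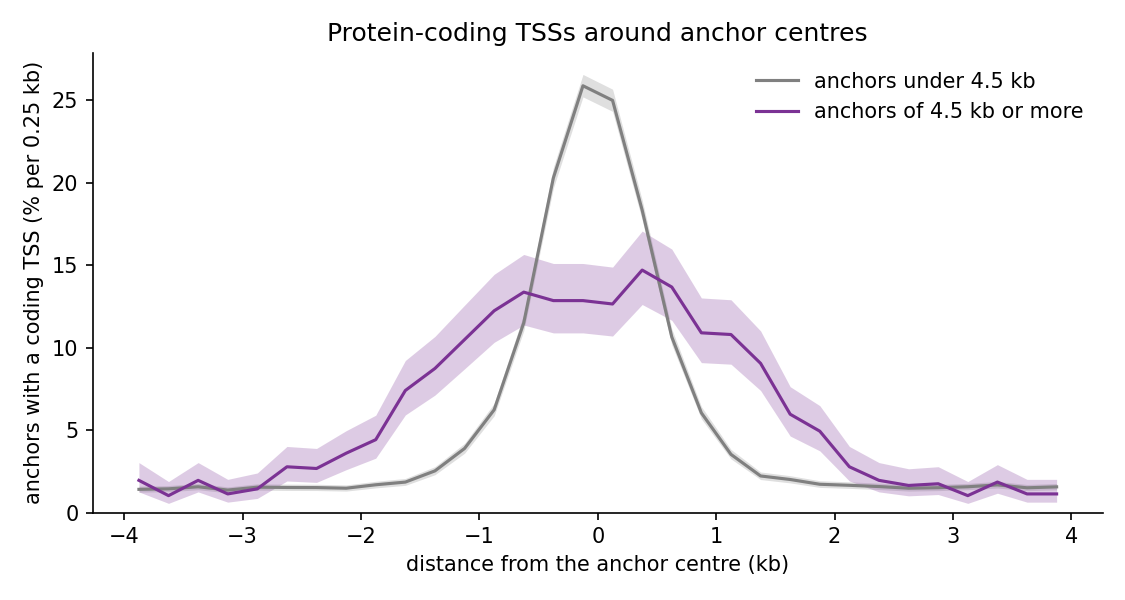
Percent of anchors with a protein-coding TSS in each 0.25 kb bin of distance from the anchor centre, for wide anchors (n = 972) and narrower ones (n = 15892), in both orientations; bands are Wilson 95% intervals. Narrower anchors peak at 25.9% beside the centre, and wide anchors form a low plateau of 12.2 to 14.7% between 1 kb before and 0.75 kb after it.

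The central sequence of wide anchors held less CG. Their central 1 kb had a median of 31 CG per kb and that of narrower anchors 49. Within each part the medians were 38 and 57 in the first and 34 and 44 in the second. With only anchors near a TSS, they were 42 for wide and 60 for narrower anchors. Away from TSSs the 2 kinds were close, at 12 and 14. Over the whole anchor the difference was small, with medians of 30.8 CG per kb for wide and 33.0 for narrower anchors. The wide ones near a TSS had a median of 34.1, against 13.2 for those with none. For narrower anchors these medians were 37.9 and 13.3. A TSS lay in the central 1 kb of wide anchors less often, and how far this accounts for their lower central CG was not tested. Repeat-masked sequence filled a median of 15.5% of wide and 14.3% of narrower anchors.

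Wide anchors took part in more loops and held more tags than narrower ones, though their median per kb was lower. They had a mean of 3.85 loops and a median of 3 (range 1 to 31), compared with a mean of 2.82 and a median of 2 (1 to 35). Their tags averaged 8.26 with a median of 3 (1 to 312), against 4.73 and 2 (1 to 264). Per kb of anchor the median was 0.626 tags for wide and 0.843 for narrower anchors. Every listed anchor has at least 1 tag, so that a lower value per kb follows in part from the choice by width. Mean tags per kb were 1.47 for wide and 1.84 for narrower anchors, but 1.99 at 6 kb or more. The step was present in each part of the list, where the mean tag count was 13.7 against 6.61 in the first and 4.39 against 2.37 in the second. Counts rose across the narrower classes as well, from a mean of 3.41 tags under 2 kb to 4.59 at 2 to 3 kb and 5.97 at 3 to 4.5 kb, and reached 6.90 at 4.5 to 6 kb and 14.7 at 6 kb or more.

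The distribution of tags over wide anchors was strongly uneven. A single tag was all that 252 of them held (25.9%), 520 held 2 to 9, and 200 held 10 or more (20.6%; 18.2 to 23.2, against 11.1% of narrower anchors). In 25 the count was 50 or more. The 10 anchors with the most tags held 18.3% of the 8024 tags counted at wide anchors. Wide anchors near a TSS averaged 9.05 tags and those with none 4.85.

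**Figure D5:**
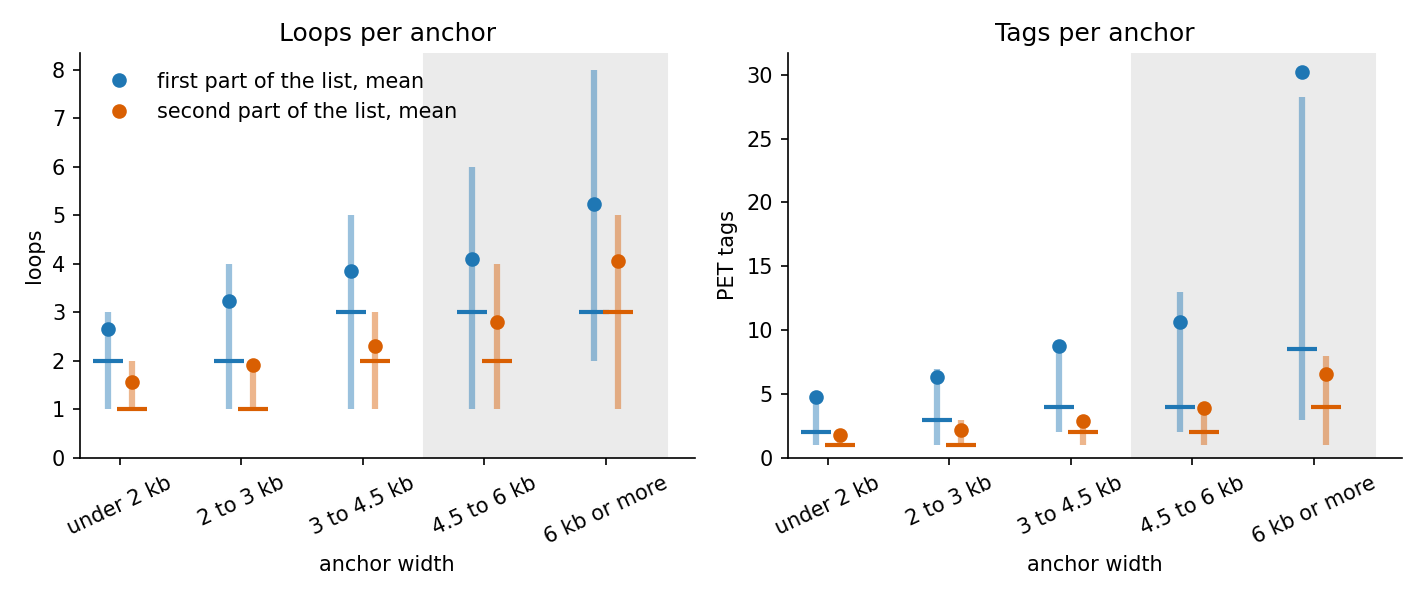
Loops per anchor (left) and paired-end tags per anchor (right) by width class and part of the list; circles are means, horizontal dashes medians and vertical bars the range between quartiles, and the shaded classes are the wide anchors. Means rise with width in both parts, to 5.24 and 4.05 loops at 6 kb or more, and in the tag panel the first part's mean of 30.2 in the widest class lies above its upper quartile of 28.25.

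Loops that touched a wide anchor numbered 3548 and held 7439 tags. Single-tag loops made up 72.4% of them (70.9 to 73.8), compared with 79.0% (78.4 to 79.5) of the 20696 loops without one. The shares were 58.9% and 70.7% in the first part and 81.5% and 91.0% in the second. Shares were also taken by span. Among loops of 100 kb to 1 Mb, 56.8% of those with a wide anchor and 67.1% of those without had a single tag in the first part, and 86.0% and 93.2% in the second. At 1 Mb or more they were 88.3% (84.6 to 91.2) and 93.8% (93.0 to 94.6) in the first part and 98.9% (97.0 to 99.6) and 99.2% (98.5 to 99.6) in the second, where the intervals overlap. No loop under 100 kb in the list had a single tag. Of all loops in the list 15.2% had an FDR under 0.01, and among the loops of wide anchors the share was 19.9% (705; 18.6 to 21.2). A tag count enters the calculation of the FDR, so that these are not independent measures. Loops of wide anchors had a median span of 413 kb and other loops 512 kb, but the parts contribute differently to each group, and within them the medians were 594 and 627 kb in the first and 305 and 333 kb in the second.

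Wide anchors met each other in 195 loops. Seen from the ends of loops, the partner was wide for 10.4% of wide ends (9.48 to 11.4) and for 7.49% of narrower ends (7.25 to 7.74). The figures were 6.99% and 5.34% in the first part and 12.7% and 10.4% in the second. Partners of wide anchors lay near a TSS less often, in 77.7% (76.4 to 79.0) against 85.7% (85.4 to 86.0), and in each part of the list the order was the same (86.8% and 90.7%, then 71.7% and 78.9%). It held as well for anchors that had a TSS of their own (79.4% and 87.6%) and for those without (66.6% and 74.8%). Wide anchors had more loops, and ends at 1 anchor are not independent, so that these intervals are too short.

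The wide anchor with the most tags was in the Hoxc cluster, whose homeodomain transcription factors pattern the trunk and limbs. It spanned 7.30 kb at chr15:102962658-102969961, with TSSs of Hoxc10 and of a long Hoxc5 transcript, and held 312 tags in 14 loops. The next held Hoxc9 and the microRNA gene Mir196a-2 (chr15:102975192-102982878, 7.69 kb) with 288 tags in 16 loops. The 2 were joined by a loop of 74 tags over 12.7 kb, counted at both, and a loop of the same count joined the Hoxc10 anchor to that of Hoxc11 over 11.2 kb. All of these tags were in the first part of the list; the second had a 5.02 kb anchor at Hoxc10 with 20 tags. Short contacts made up most of the counts here, since only 127 and 139 of the tags belonged to loops of 20 kb or more.

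Hes1, a bHLH repressor that acts downstream of Notch, had the third highest count and the most loops of any wide anchor. Its anchor of 9.61 kb had the same edges in both parts of the list and held 225 tags in 31 loops, 169 in the first part and 56 in the second. Every tag came from loops of 20 kb or more, the strongest of which had 38 tags over 58.6 kb to the lncRNA gene 4632428C04Rik. The CG-rich window shown above lies 0.83 kb from the nearest TSS, and the anchor as a whole had 49.1 CG per kb.

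The other wide anchors with high counts also held promoters. The anchor at Bahcc1, which encodes a chromatin reader with a BAH domain, had 122 tags (chr11:120232688-120239556). The anchor at Zic2, a zinc finger transcription factor of the early neural plate, followed it (chr14:122474018-122479319), with 48 tags in its strongest loop and 36 tags in loops of 20 kb or more. Ptch1, the receptor that binds Hedgehog ligands, had 99 tags in an anchor at chr13:63560445-63567187. For Zic2 the second part of the list had a wider anchor of 8.69 kb with 53 tags that overlapped the first. Ap2a1, a subunit of the clathrin adaptor AP-2, followed with 92 tags, and Mex3d, an RNA-binding protein, with 75. Bbc3, the pro-apoptotic BCL2 family member PUMA, and Ing1, a reader of methylated histone H3, had 70 tags each. Among these 7 anchors, 2 had tags in both parts of the list, with 85 and 14 for Ptch1 and 63 and 7 for Bbc3, and the other 5 in the first alone. Their strongest loops were short for Zic2 (6.73 kb), Ing1 (33 tags, 6.54 kb) and Ptch1 (26 tags, 8.99 kb) and longer for Ap2a1 (10 tags, 45.6 kb).

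Of the 10 widest anchors, only that of Hes1 was also among the 10 with the most tags. The anchor of 26.5 kb at chr5:138659817-138686325 is 89.1% unknown bases in GRCm38, with a fragment of 23.3 kb across an assembly gap, and held 9 tags in 8 loops. Unknown bases also filled 47.6% of the anchor at Ppp2r3d (chr9:124416202-124427107, 10.9 kb, 1 tag). The anchor in a Snx9 intron (12.1 kb) held 3 loops of 1 tag, and that in an Atrnl1 intron (11.4 kb, chr19:57676061-57687444) held 1. These 4 anchors thus had 9 tags or fewer each, and 2 of them lay partly over assembly gaps.

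The remaining 6 of the 10 widest anchors had no gap. Meis1, a homeodomain cofactor of Hox proteins, had an anchor of 11.5 kb made of 18 fragments, with 53 tags in 14 loops, all in the second part of the list. Its strongest loop, of 14 tags, ran 142 kb to 8430419K02Rik, and in the first part a narrower Meis1 anchor of 6.43 kb held 12 tags. Nfib, a nuclear factor I transcription factor, had a 9.41 kb anchor (chr4:82503139-82512544) with 45 tags in 4 loops, of which 26 joined it to an anchor 28.9 kb away. An anchor of 9.83 kb inside an intron of Hmga2, which encodes an AT-hook chromatin protein, had 14 tags in 5 loops (chr10:120419898-120429732). That at Ankrd34a, Lix1l and Polr3gl (9.86 kb) had 5 single-tag loops, and that at Gm28578 (9.48 kb) 4 tags, and the Hes1 anchor completes the 10.

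The 184 wide anchors with no TSS within 2 kb were mostly far from any. Their median distance to the nearest TSS was 18.3 kb (quartiles 8.50 and 45.1), against 12.7 kb (6.39 and 27.9) for the 3701 narrower anchors without a TSS. The one with the most tags was in the Bahcc1 intron whose sequence is shown above (chr11:120258561-120263916), with 68 tags, of which 49 formed a single loop to the Bahcc1 promoter anchor 25.1 kb away. An intergenic anchor at chr10:80935620-80941182 had 58 tags, 32 of them in a loop of 9.01 kb to Gadd45b, a stress-response gene. One over an exon of Foxk1 (chr5:142452404-142458674) had 35, with its strongest loop reaching Ap5z1 over 8.66 kb. An anchor 57.5 kb from the TSS of Uncx, a homeobox gene, had 26 (chr5:139601393-139607517). The fifth, in a Skap1 intron beside the Hoxb cluster (chr11:96537349-96542390), had 25 tags in 15 loops in the second part of the list, the strongest of 3 tags over 288 kb to Gm11539 and Gm53. After the gap anchor on chromosome 5 and those in Snx9, Atrnl1 and Hmga2 introns, the widest anchor without a TSS was at chr3:9166478-9175545 (9.07 kb), with 8 of its 12 tags in a loop of 80.4 kb to Zbtb10.

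Some pairs of wide anchors were joined by strong loops, chosen here after their values were seen. Zbtb7b and the anchor of Cks1b and Shc1 were linked by 26 tags over 26.9 kb. A pair in the Hist1 cluster had 24 tags over 9.67 kb, and 16 tags tied the Sox2 promoter anchor to a wide anchor without a protein-coding TSS 12.8 kb away. Nfib was linked by 11 tags to a wide anchor at chr4:81577424-81583554, 927 kb away and with no protein-coding TSS within 2 kb. Foxp1 had a loop of 10 tags between 2 of its own wide anchors, 495 kb apart. Strong loops between wide anchors thus ran from under 10 kb to nearly 1 Mb.

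Genes were then counted by list. Of 13199 genes with a TSS within 2 kb of any anchor, 1141 had one within 2 kb of a wide anchor, or 8.64%; this background was 4.79% in the first part of the list and 9.67% in the second. The gene lists are small, a gene with several anchors has more chances to meet a wide one, and neighbouring genes share anchors, so that counts are given as a description. Among transcription factors, Sox genes had 5 of 11 looped members at wide anchors (45.5%; 95% interval 21.3 to 72.0): Sox2 (39 tags), Sox6 (13), Sox21 (3), Sox9 (3) and Sox14 (1). In the parts they stood at 2 of 7 and 4 of 10.

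The Klf, Sp and Zic zinc finger genes had 8 of 28 (28.6%; 15.3 to 47.1), led by Zic2, Zic5 (34 tags) and Sp3 (33), with Sp9, Klf4, Klf2, Klf12 and Sp8 at 10 tags or fewer. Hox genes had 7 of 40 (17.5%; 8.75 to 32.0), of which 3 of 33 in the first part and 6 of 32 in the second. Beside the Hoxc genes these were Hoxb2, Hoxb3 and the antisense genes Hoxb3os and Hoxaas3. Other homeobox genes had 9 of 55 (16.4%), and only 2 of 40 in the first part: Meis1 and Meis2 (12 tags) had over 10 tags, and the others, Lbx1, Dlx6, Tgif2, Tgif1, Pknox2 and Satb1 among them, had 8 or fewer. Forkhead genes stood near the background, at 3 of 28 (Foxp1, Foxb1 and Foxj3), and none of the 4 looped T-box genes was at a wide anchor.

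Signalling and early-response genes were few in each list, and their intervals are wide. The Id, Hes, Hey and Twist bHLH list had 4 of 17 (Hes1, Tcf4, Bhlhe41 and Hes3; 9.56 to 47.3%), and AP-1 and immediate early genes 6 of 23 (26.1%; 12.5 to 46.5), with Zfp36l1 (29 tags), Junb (17), Jund (10), Myc (6), Ier2 (5) and Zfp36l2 (2). All but 1 of these 6 came from the second part of the list alone, where the count was 6 of 22, against 1 of 18 in the first. Wnt ligands and Frizzled receptors had 3 of 12 (Fzd10, Fzd1 and Fzd8). Feedback and related genes of the Wnt, Notch, FGF and BMP pathways had 4 of 25 (Smad7, Tcf7l2, Znrf3 and Spry1). The interval of the latter, 6.40 to 34.7%, includes the background.

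Chromatin genes were counted by complex. SS18 and its fusion reside in canonical and non-canonical BAF, but according to the paper the fusion does not enter the polybromo type, PBAF. The list of BAF subunits was not split by type. It had 8 of 28 looped members at wide anchors (28.6%, interval 15.3 to 47.1), with 7 of 25 in the first part and 6 of 20 in the second. The members at wide anchors were Arid1b (29 tags), Arid2 (19), Dpf2 (14), Ss18 (14), Smarcd3 (11), Bcl11b (4), Bcl11a (2) and Smarca2 (2). Polycomb genes had 4 of 33 (12.1%; 4.82 to 27.3), an interval that overlaps that of BAF, namely Ezh2 (11 tags), Jarid2, Auts2 and Cbx8. Replication-dependent histone genes had 14 of 63 (22.2%; 13.7 to 33.9), but they lie in clusters, and 5 of the 14 shared a single anchor of 6.93 kb with 65 tags at Hist1h2ad, Hist1h2ae, Hist1h2bf, Hist1h2bg and Hist1h3d. Cytosolic ribosomal protein genes, whose promoters are active in every cell, had 3 of 71 (4.23%; 1.45 to 11.7), Rps6 and Rps9 among them, and collagen genes 0 of 9.

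Genes that the study had grouped by expression in other samples were compared as well. These were genes switched on as the sarcoma forms (sarcomagenesis activated transcription, SAT) and genes active before and after (maintained active transcription, MAT). Of the SAT genes 17 of 104 looped ones were at wide anchors (16.3%; 10.5 to 24.6), compared with 22 of 283 (7.77%; 5.19 to 11.5) of the MAT genes. In the first part the shares were 10.8% (7 of 65) and 5.70% (13 of 228), against the background of 4.79%, and in the second 17.1% (14 of 82) and 7.76% (17 of 219), against 9.67%. SAT members with the most tags were Hoxc5, Sox2, Hoxb3, Ccdc106 (17 tags), Sp9 (10), Hmga2 (8), Dlx6 (7) and Crb3 (6), so that this list shares members with the Hox, Sox and zinc finger lists. Hoxc5 was counted only through the TSS of its long transcript, at anchors that it shares with Hoxc10, and those tags cannot be assigned to either gene. The leading MAT genes were Brd2, which encodes a bromodomain reader of acetylated histones (43 tags), Polr3gl (39) and Ptms (16).

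The material was also read against cell type markers. Of 10 genes marking SyS or mesenchyme 7 were looped and 2 of them, Sox2 and Sox9, were at wide anchors. Of skeletal muscle markers 1 of 6 was looped, of endothelial markers 3 of 5 and of immune markers 0 of 6, and none of these was at a wide anchor. Of all 21924 protein-coding genes 10035 were looped, and 8.31% of the looped ones were at wide anchors. The marker lists are too small to be told apart from these shares. Loops report contacts and not expression, and the share of host cells was not tested.

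The threshold itself cut through like anchors. Just inside it were the anchors of Arf6 and Gm9887 (4500 bp, 33 tags), Ing2 (4501 bp, 3 tags) and Nsun2 and Tent4a (4502 bp, 3 tags). Just outside were one in a Map4k3 intron (4499 bp, 1 tag), that of Dpm1 and Mocs3 (4499 bp, 8 tags) and that of Map2k4 (4498 bp, 2 tags). Anchors with promoters and with few tags were present on both sides.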

How the data were processed

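H3K27ac HiChIP was read from a single loop list of 2 tumors. According to the methods of the authors, read pairs were mapped to mm10 with HiC-Pro, loops were called with hichipper and its Mango statistics at an FDR under 0.05, and the loops of both tumors were merged; a legend of the study names a threshold of 0.01 instead, but the deposited FDR values run up to 0.05 and all were kept; how the tag counts were merged is not given in the sources used here. The count of paired-end tags per loop was used as deposited, not normalized. The FDR, a p-value adjusted for multiple testing, was used as deposited by the authors. The list has no header and no per-sample columns. Its depth was 41574 tags over 24244 loops, and most loops have 1 tag, so that the count of any single loop is imprecise.

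Anchors were distinct triples of chromosome, start and end, with positions printed as listed. TSSs were the first bases of GENCODE vM21 transcripts on GRCm38 (mm10), and sequence was read from the RefSeq copy of GRCm38. An anchor was near a TSS when one lay within 2 kb of it. Spans were measured from midpoint to midpoint. Shares have Wilson 95% intervals and differences of shares Newcombe intervals; both cover counting error only, since anchors are not replicates and tags are PCR products without molecular identifiers. With no value that could be assigned to a tumor, no test was made. Named anchors were the 10 widest, the 10 with the most tags, the 5 widest and 5 with the most tags away from TSSs and 3 on each side of the threshold, with genes by TSS within 2 kb, and up to 8 members of each gene list by tags; a few list members are not reported here. SAT and MAT categories came from the source data of the study. The set of anchors, the gene lists and the comparisons were chosen with earlier results of these data known. Alternatives were thresholds of 4 and 5 kb, merged anchors, stricter FDRs, each part of the list alone, other TSS windows and annotations, loops of 20 kb or more, repeated loops summed and the Hox clusters left out; anchors without unknown bases were added after seeing the data, as were all alternatives for CG content and gene counts. Counting steps were tested on simulated data. Python 3.11.15, pandas 2.3.3, numpy 2.4.6, scipy 1.17.1, pysam 0.24.0 and matplotlib 3.10.9 were used. The ChIP-seq and other data of the study were not used here.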

Additional observations from a re-analysis of the deposited data

How the results depend on the processing

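No paired analysis was possible because the merged list carries no column of either tumor. The ratios of wide to narrower anchors kept their direction under all 11 alternatives each, between 1.28 and 1.73 for mean loops and between 1.58 and 2.36 for mean tags. The difference in the share near a TSS (4.36 points) reversed in the first part alone (-1.12), at an FDR under 0.01 (-2.24) and under 0.001 (-2.95), and was 7.81 at a threshold of 4 kb, 9.70 in the second part and 8.44 with overlapping anchors merged. The difference in the central 1 kb (-19.9 points) stayed negative, at -14.1 and -25.9 for thresholds of 4 and 5 kb, -27.6 and -24.7 at an FDR under 0.01 and 0.001, -26.8 and -14.0 in the first and second parts, -15.6 with anchors merged and -11.3 for the central 2 kb. The difference in single-tag loops (-6.65 points) was -4.40 and -9.17 at 4 and 5 kb, -11.8 and -9.54 in the parts, -9.59 with anchors merged and 0 at an FDR under 0.01 and 0.001, where no loop has a single tag. The excess of wide partners (2.93 points) was 6.45 and 5.12 at an FDR under 0.01 and 0.001, 1.65 in the first part and 1.75 with anchors merged. The difference in central CG (-18 per kb) was -10 at 4 kb and -10 in the second part. The share of looped genes at wide anchors (8.64%) was 15.99% and 4.77% at 4 and 5 kb and 4.79% in the first part. For reversals and shifts other than those set by the threshold or by fewer loops, the cause was not tested. The other 58 of 88 alternatives kept the direction and stayed within the 95% interval of the main difference or, for ratios, central CG and the share of genes, within a factor of 1.5. Among these, the difference in the share near a TSS fell to 2.66 points (0.119 to 4.95) with a window of 5 kb and to 2.82 with protein-coding TSSs only, where its interval spans 0 (-0.0864 to 5.54).

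A single tag carries most loops, a merged list hides the spread between tumors, and the 2 parts differ in depth and in anchor width. Width depends on the MboI map as well as on acetylation. The list gives only the width, the ChIP-seq data were not used, and how much each contributes was not tested.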

Other observations

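Unknown bases of GRCm38 were present in 14 anchors, 5 of them wide. The wide ones were 2 overlapping anchors at Ppp2r3d, with 47.6% and 57.7% unknown bases, of which the narrower held 15 tags in 3 loops. The others were the anchor of 26.5 kb on chromosome 5 (89.1%), one of 4.62 kb on chromosome 1 (4.33%, 5 tags) and one of 5.12 kb on chromosome X (0.0195%, 1 tag). Repeat-masked sequence made up more than 50% of 8 wide anchors (0.823%; 95% interval 0.418 to 1.62) and of 183 narrower ones (1.15%; 0.997 to 1.33). Of the protein-coding genes at wide anchors, 83 had at least 2 of them.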
